A study of Homo sapiens with 6 samples.

Results

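The 9 secreted chemokine genes described here were followed across human thyroid cancer cell lines: CXCL1, CXCL2, CXCL3, CXCL5, CXCL6, CXCL8, CXCL12, CCL2 and CCL20. They were chosen by name, with earlier results of these data known, as chemokines that act on neutrophils, monocytes and other leukocytes. They are 9 of the 58884 genes in the authors' table. Each of the 9 was read in all 6 libraries of the series. The study changed the level of CRABP2, a cellular retinoic acid-binding protein that delivers retinoic acid to its nuclear receptor. The lines are established ones: FTC-133 comes from a follicular thyroid carcinoma, and BHT-101 and 8505C come from anaplastic carcinomas of the thyroid (the labels write the names without hyphens, and 8505C without its letter). CRABP2 was knocked down with an siRNA (siCRABP2) in FTC-133 and in BHT-101, each set against siControl. In 8505C, CRABP2 was overexpressed from a vector and compared with cells given an empty one, and the labels do not say whether these were a clone or a pool. No other allele, agent, time or dose is named for any group. Each condition was 1 library of total RNA, so a difference within a line has no replicate check, and nothing says that the cultures of a line were grown separately.

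Chemokines are small secreted proteins that guide leukocytes by binding G protein-coupled receptors. CXCL1, CXCL2, CXCL3, CXCL5, CXCL6 and CXCL8 carry the glutamate-leucine-arginine (ELR) motif before their CXC cysteines, bind CXCR2 (CXCL6 and CXCL8 also CXCR1), and draw neutrophils. CCL2 draws monocytes through CCR2, CCL20 draws cells with CCR6, and CXCL12 binds CXCR4 and the scavenging receptor ACKR3. The ELR genes and CCL20 are classical targets of NF-kB and are induced by interleukin 1 and tumour necrosis factor, and their short-lived mRNAs carry AU-rich elements. Tumour cells can make these chemokines themselves.

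The 6 ELR genes lie in a cluster on chromosome 4, from CXCL8 at its lower end (ENSG00000169429, 73740506 to 73743716, plus strand, GENCODE release 29 on GRCh38) to CXCL2 at its upper end (ENSG00000081041, 74097035 to 74099293, minus strand). The windows of 41 bases printed here are shown because all 6 held the same 9-base NF-kB (kB) motif, in capitals, in the 250 bases before the start of the gene. They are RefSeq sequence of GRCh38.p14, written 5′ to 3′ on the strand of the gene:
CXCL8 (chr4:73740462-73740502, plus strand): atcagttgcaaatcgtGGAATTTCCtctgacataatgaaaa
CXCL1 (chr4:73869299-73869339, plus strand): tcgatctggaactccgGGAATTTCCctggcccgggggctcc
CXCL2 (chr4:74099248-74099288, minus strand): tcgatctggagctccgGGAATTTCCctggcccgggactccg
CXCL3 (chr4:74038743-74038783, minus strand): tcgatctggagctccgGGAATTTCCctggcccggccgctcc
CXCL5 (chr4:73998743-73998783, minus strand): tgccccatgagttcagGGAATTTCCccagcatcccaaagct
CXCL6 (chr4:73836573-73836613, plus strand): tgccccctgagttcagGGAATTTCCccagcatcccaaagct

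The motif, GGAATTTCC, was searched on both strands, and 145 of 35116 RefSeq promoters (0.413%) held it in the 250 bases before the start. In the ELR genes it ended 69 to 83 bases before the start. CXCL1, CXCL2 and CXCL3, which are close paralogs, had 68.0% to 81.4% identity over the 250 bases, and CXCL5 and CXCL6 had 85.3%. CXCL8 had 40.5% to 45.0% identity with the other ELR genes. Promoters of 8 of the 9 genes were matched by symbol in the RefSeq table, and only CCL2 was not. By GENCODE release 29 the CXCL2, CXCL3 and CXCL6 windows lie inside the annotated gene, the CXCL5 window overlaps its start, and those of CXCL8 and CXCL1 lie upstream of it. A match describes the letters and is not evidence of binding.

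The 250 bases before the RefSeq starts of CXCL8 and CXCL12 are printed because these genes stood at opposite ends of the differences in FTC-133. Capitals mark the AP-1 motif TGANTCA (bases 137 to 131 before the start), the kB motif and the TATA motif TATAAA (bases 31 to 26 before the start). The 3 motifs do not overlap one another:
CXCL8 (chr4:73740319-73740568, plus strand): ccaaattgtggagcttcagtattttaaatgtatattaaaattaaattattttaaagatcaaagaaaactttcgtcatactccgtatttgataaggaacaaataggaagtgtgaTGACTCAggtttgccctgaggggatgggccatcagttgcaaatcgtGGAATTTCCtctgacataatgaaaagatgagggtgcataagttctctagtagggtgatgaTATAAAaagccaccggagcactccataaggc
CXCL12 (chr10:44385098-44385347, minus strand): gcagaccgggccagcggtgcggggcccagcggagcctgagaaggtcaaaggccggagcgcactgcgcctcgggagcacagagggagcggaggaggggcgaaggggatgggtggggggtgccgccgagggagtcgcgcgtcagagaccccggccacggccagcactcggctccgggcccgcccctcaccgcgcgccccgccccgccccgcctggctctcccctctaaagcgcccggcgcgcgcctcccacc

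By GENCODE release 29 the whole CXCL12 stretch lies inside the gene, past its start, and the last bases of the CXCL8 stretch, from 73740506 on, lie inside that gene. The CXCL12 window held none of the 3 motifs, which says only that these letters are not in it, and sequence before the release 29 start was not searched. CXCL8 was the 1 gene of the 8 with the AP-1 motif, which 6.57% of all promoters held in the same window. CCL20 and CXCL8 were the 2 with the TATA motif, which 10.7% of promoters held.

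**Figure D1:**
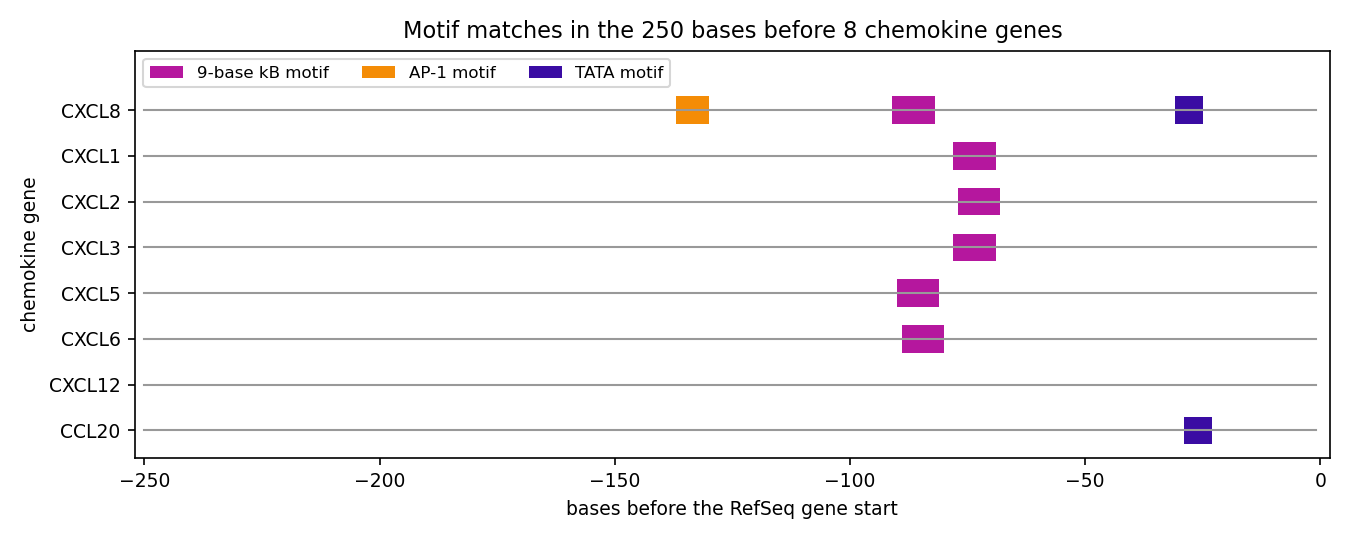
Positions of 3 motifs in the 250 bases before the RefSeq start of 8 chemokine genes (x axis: bases before the start; 1 horizontal line per gene; coloured blocks: motif matches on either strand). The kB motif sits 69 to 91 bases before the start in the 6 ELR genes and is not marked in CXCL12 or CCL20. Only this exact 9-base form of the kB motif was searched, so other forms would not be marked.

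Values are FPKM, reads scaled for exon length and library depth, and the reads behind them were recovered from the values. Libraries held 22084110 to 27958622 reads. CRABP2 itself followed the labels: 27.3 FPKM (826 reads) with siControl and 11.4 (276 reads) with siCRABP2 in BHT-101, 8.94 (240 reads) and 0.17 (5 reads) in FTC-133, and 0.607 (15 reads) with the empty vector and 38.0 (909 reads) with the CRABP2 vector in 8505C. Of 4 leukocyte and 4 neutrophil markers, 0 reached 1 FPKM in any library, and their sums ran from 0.0126 to 0.169 and from 0.17 to 0.481 FPKM. Of 5 monocyte markers, 2 did: CD14 in both BHT-101 and both 8505C libraries, and FCER1G in FTC-133 with siCRABP2 (1.18 FPKM). Thyroid markers were sparse: 0 of 7 reached 1 FPKM in BHT-101, NKX2-1 and PAX8 did in FTC-133, and NKX2-1 did in 8505C. Fewer cells that make a chemokine and less mRNA per cell cannot be told apart in bulk RNA.

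**Figure D2:**
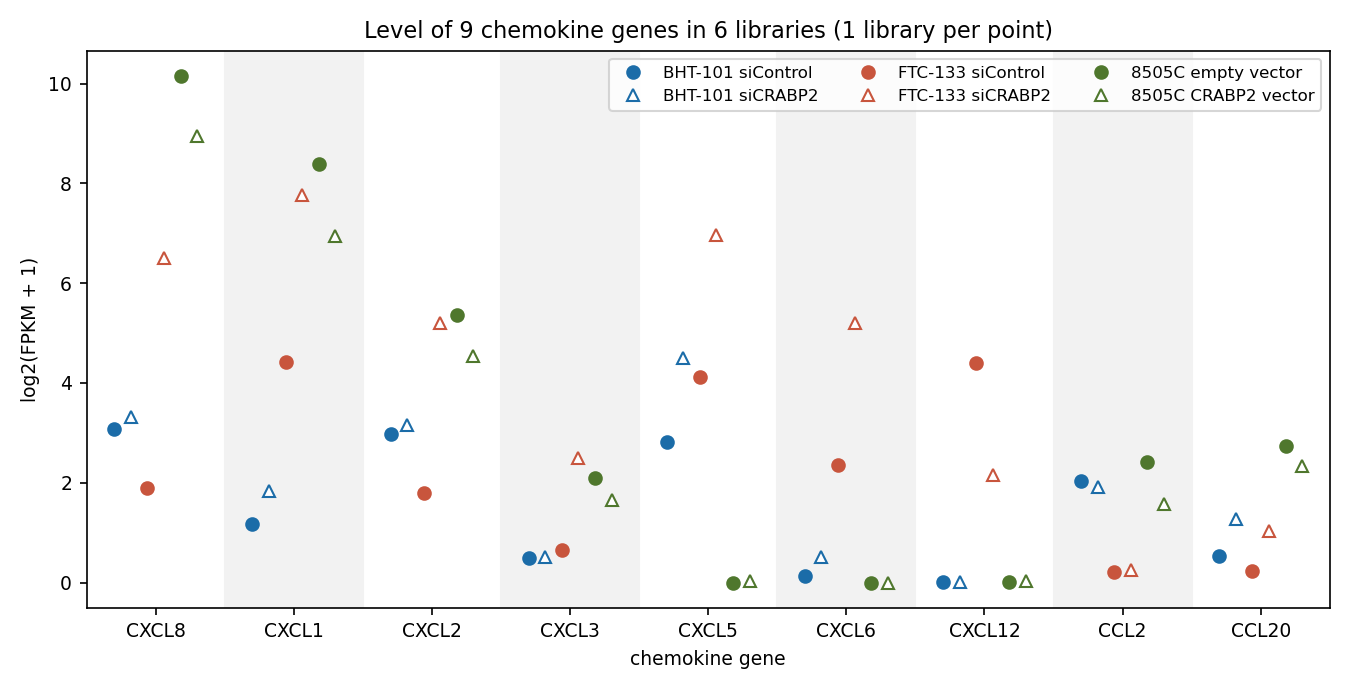
Levels of the 9 chemokine genes in the 6 libraries, as log2(FPKM + 1) (filled circles: siControl or empty vector; open triangles: siCRABP2 or CRABP2 vector; 1 library per point). CXCL8 runs from 1.89 in FTC-133 with siControl to 10.15 in 8505C with the empty vector, while CXCL5, CXCL6 and CXCL12 lie at the bottom in 8505C.

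Totals of the ELR chemokines differed between libraries, as did the gene with the largest part. Over the 6 ELR genes, summed FPKM was 22.1 and 41.8 in BHT-101 (siControl, then siCRABP2), 46.9 and 506.7 in FTC-133, and 1513 and 639.8 in 8505C (empty vector, then CRABP2 vector). CXCL8 made up 75.1% and 77.1% of that sum in 8505C. CXCL1 was the largest part in FTC-133, with 43.9% and 42.5%. In BHT-101 the largest part was CXCL8 with siControl (33.9%) and CXCL5 with siCRABP2 (51.6%). These sums set FPKM values of different genes side by side, which is a scale per exon length.

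CXCL8, an ELR chemokine that draws and activates neutrophils, was at 7.49 and 8.92 FPKM in BHT-101, at 2.72 and 90.3 in FTC-133, and at 1136 and 493.5 in 8505C. In 8505C with the empty vector its rank by FPKM among protein-coding genes was 13, and with the CRABP2 vector 55. The 8505C libraries lay above the other 4 without overlap. In limma fitted over all 6 libraries with the CRABP2 arm as a block, CXCL8 was higher in 8505C than in BHT-101 by 6.35 on log2(FPKM + 1) (SE 0.95, limma adjusted p = 0.00207) and than in FTC-133 by 5.35 (SE 0.95, limma adjusted p = 0.00421). BHT-101 and FTC-133 did not differ beyond their spread in it, with a difference of -1.01 (SE 0.95, limma adjusted p = 0.423). Each line is represented by 2 libraries that differ in CRABP2. The block takes out the CRABP2 difference that the lines share. These errors therefore hold the part of it that differs between lines, as well as noise. Both 8505C libraries came from cells given a vector and the other 4 from cells given an siRNA. Line and delivery therefore cannot be told apart in any contrast of 8505C with another line.

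CXCL1 (ENSG00000163739, chr4:73869393-73871242, plus strand), a growth-regulated ELR chemokine, was at 1.27 and 2.56 FPKM in BHT-101, 20.6 and 215.6 in FTC-133, and 333.3 and 122.0 in 8505C. Both BHT-101 libraries lay below all others, and the FTC-133 library with siCRABP2 lay between the 8505C libraries. CXCL1 was lower in BHT-101 than in 8505C by 6.16 (SE 0.58, limma adjusted p = 0.000407 for 8505C against BHT-101) and than in FTC-133, with BHT-101 minus FTC-133 at -4.59 (SE 0.58, limma adjusted p = 0.00157). The 8505C and FTC-133 levels differed by 1.57 (SE 0.58, limma adjusted p = 0.0584), which missed the threshold and passed it under quantile scaling (limma adjusted p = 0.0337) and upper-quartile scaling (0.0458).

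CXCL2, on the minus strand near the far end of the cluster, was at 6.83 and 7.91 FPKM in BHT-101, 2.48 and 35.7 in FTC-133, and 40.2 and 22.2 in 8505C. None of its 3 line differences passed the threshold; the nearest was 8505C minus BHT-101 at 1.89 (limma adjusted p = 0.0589). CXCL3 (ENSG00000163734, chr4:74036589-74038807, minus strand), the remaining paralog, was at 0.403 and 0.424 FPKM in BHT-101, 0.563 and 4.63 in FTC-133, and 3.25 and 2.14 in 8505C. It was higher in 8505C than in BHT-101 by 1.37 (SE 0.42, limma adjusted p = 0.0301), a call that ended with a pseudocount of 5 (limma adjusted p = 0.0584), with no filter on low values (0.145) and with no block for the arm (0.0684). Of stretches of 50 bases in the longest coding transcripts, 5.73% in CXCL1, 9.24% in CXCL2 and 5.26% in CXCL3 also occurred in another of these 3 genes, and 0.0% of stretches of 100 bases did. Read length and the handling of reads that match several genes are unknown here, so reads in those stretches are uncertain.

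CXCL5 and CXCL6, the granulocyte attractants of the other paralog pair, were expressed in FTC-133 and, for CXCL5, in BHT-101, and were at or near 0 reads in 8505C. CXCL5 (ENSG00000163735, chr4:73995642-73998779, minus strand) was at 6.04 and 21.6 FPKM in BHT-101 and at 16.5 and 124.8 in FTC-133. In 8505C it had 0 reads with the empty vector, which allows up to 0.0539 FPKM, and 1 read with the CRABP2 vector. Over both libraries of each line, the depth-scaled read ratio to 8505C was 10.47 on the log2 scale for BHT-101 (95% exact interval 7.99 to 15.77) and 12.97 for FTC-133 (10.49 to 18.27). Read intervals here hold counting error alone, and they describe the libraries rather than the conditions. In limma, CXCL5 was lower in 8505C than in BHT-101 (8505C minus BHT-101 -3.64, SE 0.61, limma adjusted p = 0.00315) and than in FTC-133 (8505C minus FTC-133 -5.54, SE 0.61, limma adjusted p = 0.000719). The size of a fitted difference from a level near 0 depends on the pseudocount and is no bound on the ratio.

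BHT-101 lay below FTC-133 in CXCL5 at -1.89 (SE 0.61, limma adjusted p = 0.0455), although the higher BHT-101 library overlapped the FTC-133 range. That call ended with a pseudocount of 0.1 (limma adjusted p = 0.0643) or 5 (0.0622), under quantile (0.0685) and upper-quartile scaling (0.0633), with no filter (0.175) and with no block (0.141). CXCL6 (ENSG00000124875, chr4:73836497-73849064, plus strand) was at 0.0877 and 0.417 FPKM in BHT-101, at 4.09 and 35.7 in FTC-133, and at 0 reads in both 8505C libraries. Against the limit of 3 reads over both 8505C libraries (0.0327 FPKM), its mean in FTC-133 (19.9 FPKM) was at least 608-fold higher. In limma it was lower in 8505C than in FTC-133 (-3.77, SE 0.65, limma adjusted p = 0.00367) and lower in BHT-101 than in FTC-133 (-3.46, SE 0.65, limma adjusted p = 0.00702, and 0.0602 with no filter).

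CXCL12 (ENSG00000107562, chr10:44370165-44386493, minus strand), which holds and recruits cells bearing CXCR4, was seen in FTC-133 alone above trace: 20.2 FPKM with siControl and 3.46 with siCRABP2. The other 4 libraries held 1 or 2 reads each. The depth-scaled read ratio of FTC-133 to 8505C was 10.03 on the log2 scale (95% exact interval 8.48 to 12.31) and to BHT-101 10.77 (8.92 to 13.82). FTC-133 was higher than both in limma, with 8505C minus FTC-133 at -3.27 (SE 0.55, limma adjusted p = 0.00335) and BHT-101 minus FTC-133 at -3.27 (SE 0.55, limma adjusted p = 0.0046). CXCL12 is also made by fibroblasts. Of 6 fibroblast markers, 3 reached 1 FPKM in FTC-133, and the summed level was 160.7 FPKM with siControl and 142.9 with siCRABP2, with COL1A2 at 107.2 and 111.4. The sum was 84.0 and 79.1 FPKM in BHT-101, mostly LUM with COL1A2 at 0.0609 and 0.0401, and 1.05 and 0.38 in 8505C, with COL1A2 at 0. The markers did not run together. COL1A1 and PDGFRB were also highest in FTC-133, while LUM and PDGFRA were highest in BHT-101 and DCN in 8505C. LUM was at 13.2 and 6.53 FPKM in FTC-133 and at 80.2 and 75.5 in BHT-101. The part of these markers in the CXCL12 levels was not tested.

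The CC chemokines followed other orders. CCL2 (ENSG00000108691, chr17:34255218-34257203, plus strand), the monocyte attractant, was at 3.08 and 2.77 FPKM in BHT-101, 0.162 and 0.185 in FTC-133 (8 and 10 reads), and 4.32 and 1.96 in 8505C. FTC-133 lay below the others, with 8505C minus FTC-133 at 1.76 (SE 0.26, limma adjusted p = 0.00209) and BHT-101 minus FTC-133 at 1.74 (SE 0.26, limma adjusted p = 0.00299), and the 8505C and BHT-101 ranges overlapped. The summed level of the 5 monocyte markers was 1.8 FPKM in both FTC-133 libraries, 3.99 and 3.28 in BHT-101, and 16.4 and 13.0 in 8505C, and CD14 made up most of it in BHT-101 and 8505C. CSF1R (0.962 and 0.378 FPKM) and FCER1G (0.669 and 1.18) were instead highest in FTC-133, where CCL2 was lowest, and LYZ reached at most 0.0417 FPKM in any library. ITGAM was at 0.667 and 0.669 FPKM in BHT-101 and at 0 in FTC-133 and 8505C. Their part in the CCL2 levels was not tested. CCL20 (ENSG00000115009, chr2:227805739-227817564, plus strand), the ligand of CCR6, was at 0.449 and 1.40 FPKM in BHT-101, 0.177 and 1.04 in FTC-133, and 5.68 and 4.06 in 8505C. It was higher in 8505C than in BHT-101 by 1.64 (SE 0.17, limma adjusted p = 0.000615) and than in FTC-133 by 1.91 (SE 0.17, limma adjusted p = 0.000391).

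Counted together, 4 of the 9 genes were higher and 1 was lower in 8505C than in BHT-101, where 29.2% of all 13736 tested genes were higher and 31.2% lower by the same limma rule. Against FTC-133, 3 were higher and 3 lower in 8505C, where 23.7% and 34.3% of tested genes were. BHT-101 against FTC-133 gave 1 higher and 4 lower, where 17.7% and 28.3% of tested genes were. Quantile scaling moved the share of calls that were higher in 8505C than in FTC-133 from 40.9% to 52.6% over all genes, and the median difference from -0.13 to 0.06 on the log2 scale. All differences between lines called here are larger than that shift.

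**Figure D3:**
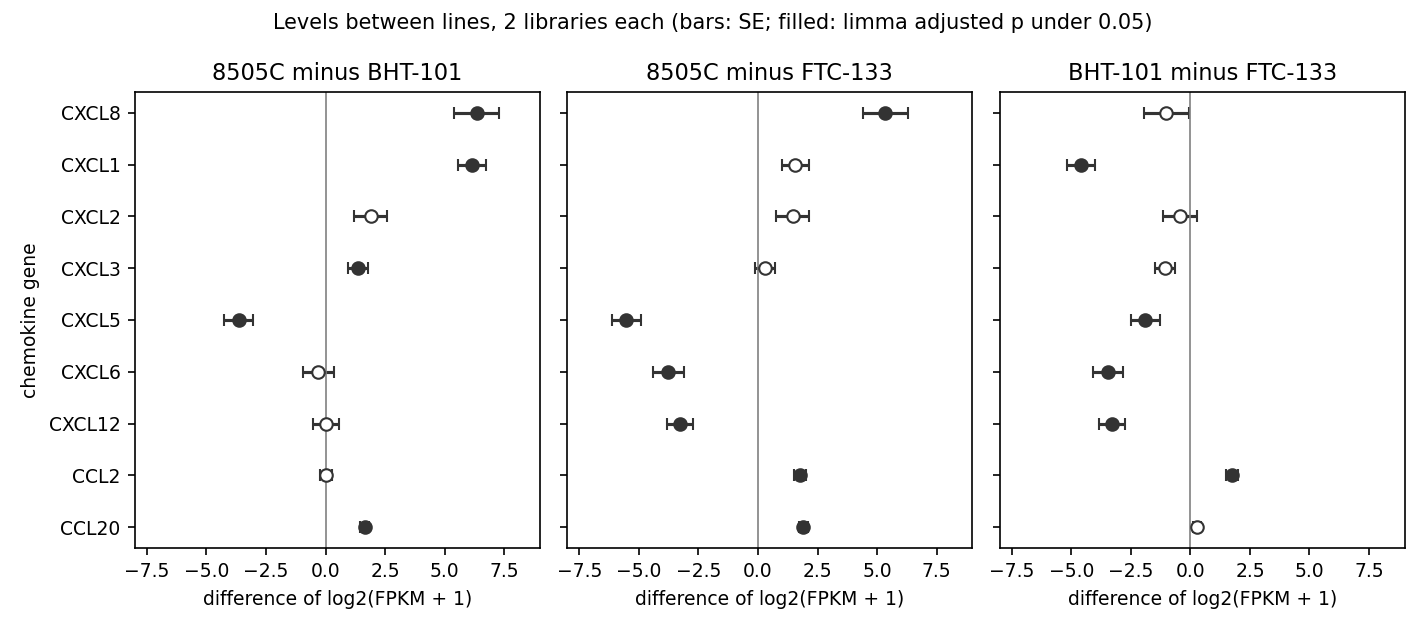
Differences between lines in log2(FPKM + 1) for the 9 genes, from limma over 2 libraries per line (bars: standard error; filled points: limma adjusted p under 0.05; open points: not under it). CXCL8 lies to the right in both 8505C panels at 6.35 and 5.35, and CXCL5 to the left in all 3.

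CRABP2 knockdown was compared within FTC-133 and within BHT-101 by the difference of log2(FPKM + 1), siCRABP2 minus siControl. A gene counted as measured at 1 FPKM or more in 1 or both libraries of the line, and as called by size at a difference of 1 or more. This is a rule of size with no test, and the 9 genes were chosen with earlier results of these data known. In FTC-133, 8 of the 9 genes were measured, 6 were at least 2-fold higher with siCRABP2 and 1 was at least 2-fold lower on this scale, where 2.36% and 2.35% of 12832 measured genes were. Their median difference was 2.85, against -0.04 over all measured genes. In BHT-101, 6 were measured, 1 was at least 2-fold higher and 0 were lower, where 0.589% and 0.539% of 12055 measured genes were. The median there was 0.44, against 0.01 over all measured genes. Some genes counted as measured only through the siCRABP2 library, where they were high: CXCL3 and CCL20 in FTC-133 and CCL20 in BHT-101. The measured sets and their medians therefore lean upward. With no filter, 6 were again higher and 1 lower in FTC-133, and 1 higher and 0 lower in BHT-101.

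All 6 ELR genes passed the size rule in FTC-133. CXCL8 went from 151 to 5496 reads, a 33.2-fold ratio of FPKM, and its difference of 4.62 ranked 2 from the highest among measured genes. Its 95% exact counting interval of the log2 read ratio was 4.82 to 5.3 around 5.05. CXCL2 (86 to 1356 reads, difference 3.40) and CXCL1 (661 to 7595 reads, difference 3.33) ranked 6 and 7. CXCL6 (207 to 1980 reads, difference 2.85) and CXCL5 (995 to 8267 reads, difference 2.85) ranked 12 and 13. CXCL3 went from 31 to 279 reads with a difference of 1.85, at rank 49. The scale understates low genes: its log2 read ratio was 3.04 (2.5 to 3.62), while its difference was 0.79, short of the rule, with a pseudocount of 5. The ratios of the 6 genes ran from 7.59-fold in CXCL5 to 33.2-fold in CXCL8.

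CXCL12 went the other way in FTC-133, from 3052 to 571 reads. Its difference of -2.25 ranked 13 from the lowest, and its log2 read ratio was -2.55 (-2.68 to -2.42). CCL20 went from 7 to 45 reads, a difference of 0.79 that did not reach the size rule, with a log2 read ratio of 2.55 (1.39 to 3.95). With a pseudocount of 0.1 the CCL20 difference was 2.04 and passed the rule. CCL2 was not measured there, and its 8 and 10 reads gave a ratio of 0.19 with an interval of -1.3 to 1.73.

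In BHT-101, CXCL5 was the gene that passed, from 411 to 1175 reads, with a difference of 1.68 that ranked 5 of 12055 and a log2 read ratio of 1.84 (1.68 to 2.0). CCL20 (20 to 50 reads, difference 0.73, log2 read ratio 1.65, 0.87 to 2.47) and CXCL1 (46 to 74 reads, difference 0.65, log2 read ratio 1.01, 0.46 to 1.57) had intervals above 0 below the size rule. CXCL6 was not measured, and its 5 and 19 reads gave 2.25 (0.78 to 4.03). CXCL8 in BHT-101 had 469 and 446 reads and a log2 read ratio of 0.25 (0.06 to 0.44). CXCL2 (0.21, -0.04 to 0.47), CXCL3 (0.07, -0.84 to 0.97) and CCL2 (-0.15, -0.5 to 0.19) had intervals that held 0. The CRABP2 difference itself was -1.19 for BHT-101 and -3.09 for FTC-133 on log2(FPKM + 1), so the size of the knockdown and the line cannot be told apart.

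**Figure D4:**
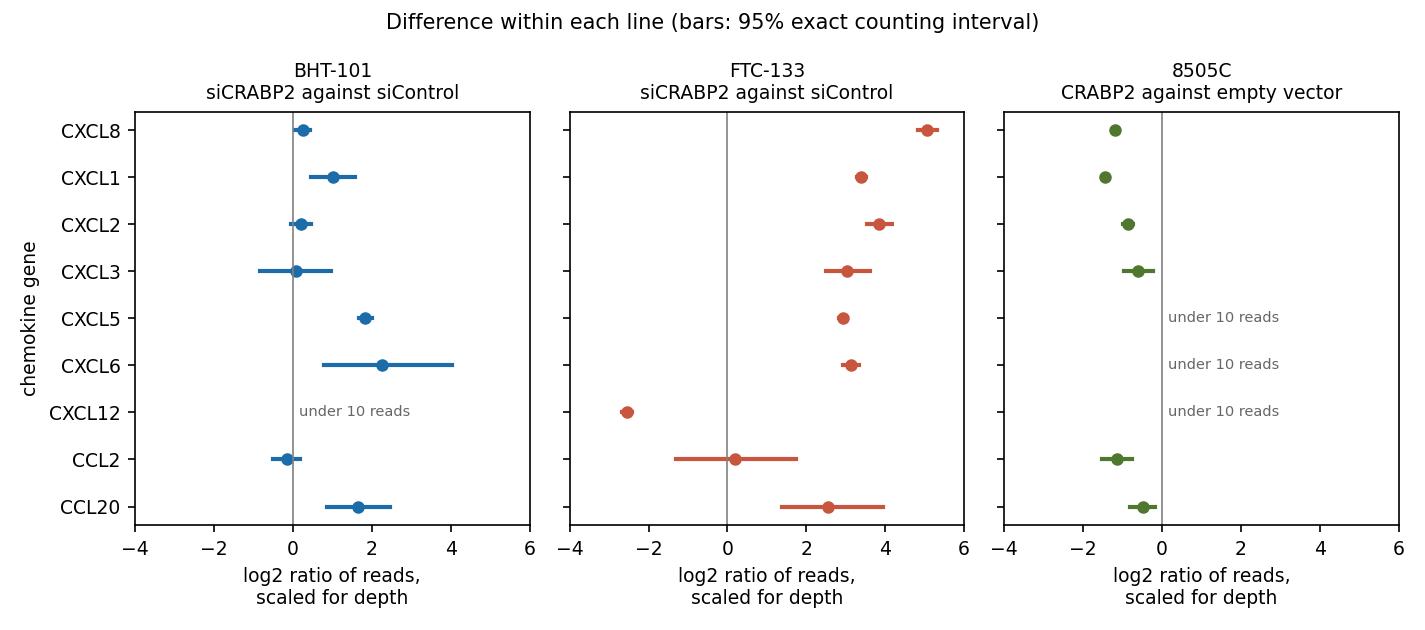
Log2 ratio of reads, scaled for depth, within each of the 3 lines for the 9 genes (points: ratio; bars: 95% exact counting interval; genes with very few reads are marked and not drawn). The 6 ELR genes lie between 2.92 and 5.05 in FTC-133, CXCL5 stands at 1.84 in BHT-101, and CXCL1, CXCL2, CXCL3 and CXCL8 lie between -1.45 and -0.6 in 8505C.

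In 8505C the contrast was reversed, CRABP2 vector minus empty vector. Of the 9 genes, 6 were measured, and all 6 had a lower value with the CRABP2 vector. By size, 0 were at least 2-fold higher and 2, CXCL1 and CXCL8, at least 2-fold lower, where 1.85% and 1.86% of 11731 measured genes were. The median difference was -0.84, against 0.02 over all measured genes. CXCL1 went from 9871 to 3491 reads, a difference of -1.44 that ranked 60 from the lowest, with a log2 read ratio of -1.45 (-1.51 to -1.39). CXCL8 went from 58123 to 24403 reads, a difference of -1.20 at rank 110, with a log2 read ratio of -1.2 (-1.22 to -1.18).

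Among the rest, CCL2 went from 196 to 86 reads (difference -0.84, or -1.10 and past the size rule with a pseudocount of 0.1; log2 read ratio -1.14, -1.52 to -0.77) and CXCL2 from 1285 to 684 (difference -0.83, log2 read ratio -0.86, -1.0 to -0.73). CXCL3 had 165 and 105 reads (log2 read ratio -0.6, -0.97 to -0.24), and CCL20 had 207 and 143 (-0.48, -0.8 to -0.17). CXCL5, CXCL6 and CXCL12 were not measured, with at most 2 reads in either library.

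Over the lines, no chemokine difference passed the test. With limma on the 4 siRNA libraries and the line as a block (1 residual degree of freedom), 8 of the 9 genes were tested and 0 were called, where 0.0% of 12953 genes were. The smallest adjusted p among all genes was 0.25, and at an unadjusted p under 0.05 there were 314 higher and 225 lower. Of the 9, 6 were at an unadjusted p under 0.05, all higher with siCRABP2. CXCL5 came out at 2.27 (SE 0.28, limma adjusted p = 0.355), with both lines above 0. CCL20 came out at 0.76 (SE 0.16, limma adjusted p = 0.793). It passed the filter of 1 FPKM in 2 libraries only through siCRABP2 (1.40 FPKM in BHT-101, 1.04 in FTC-133), where it was high. The place of CCL20 among the 6 is therefore no support for a difference. CXCL8 had the largest mean difference of the 9, at 2.42 with an SE of 0.90 (limma adjusted p = 0.869), from 4.62 in FTC-133 and 0.22 in BHT-101.

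The fit over all 6 libraries compared the arm with less CRABP2 (empty vector and siCRABP2) with the arm with more (CRABP2 vector and siControl), which joins a knockdown and an overexpression. It shares the 4 siRNA libraries with the knockdown fit, so the results are not separate evidence. All 9 genes were tested and 0 were called, where 0.0% of 13736 genes were and the smallest limma adjusted p was 0.832. At an unadjusted p under 0.05 there were 199 genes higher and 195 lower. Of the 9, 8 lay above 0, that is higher where CRABP2 was lower, and CXCL12 lay below. The median was 1.08, against -0.02 over all tested genes. CCL20 (0.64, SE 0.14) and CXCL1 (1.81, SE 0.47) were among 5 of the 9 at an unadjusted p under 0.05, with a limma adjusted p of 0.999 each. Without the FTC-133 pair, 7 were tested and all 7 lay above 0, with a median of 0.57, against -0.002 over all tested genes. Of the 7, 0 were called, where 0.0793% of 12608 tested genes were. CXCL8 was then at 0.71 in place of 2.01, and CXCL1 at 1.04 in place of 1.81.

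Few receptors for chemokines were expressed. Of 22 chemokine receptors, 2 reached 1 FPKM in any library, and 5 had no read in any. CXCR1, CCR2 and CCR6 were among those listed at 0 throughout, and CXCR2 reached 0.0125 FPKM in FTC-133 with siControl and 0 elsewhere. ACKR3, which scavenges CXCL12, was at 13.7 and 4.73 FPKM in FTC-133, the line with CXCL12, at 0.571 and 1.23 in 8505C, and at 0 in BHT-101. With siCRABP2 in FTC-133, ACKR3 was lower by the size rule (-1.36), as CXCL12 was. CXCR4, the signalling receptor of CXCL12, was listed at 0 in BHT-101 and FTC-133 and stood at 7.56 and 19.5 FPKM in 8505C, the difference being 1.26 with the CRABP2 vector. CXCR4 was higher in 8505C than in BHT-101 by 3.73 (SE 0.33, limma adjusted p = 0.000339) and ACKR3 was higher in FTC-133 than in BHT-101 (BHT-101 minus FTC-133 -3.20, SE 0.32, limma adjusted p = 0.000652).

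**Figure D5:**
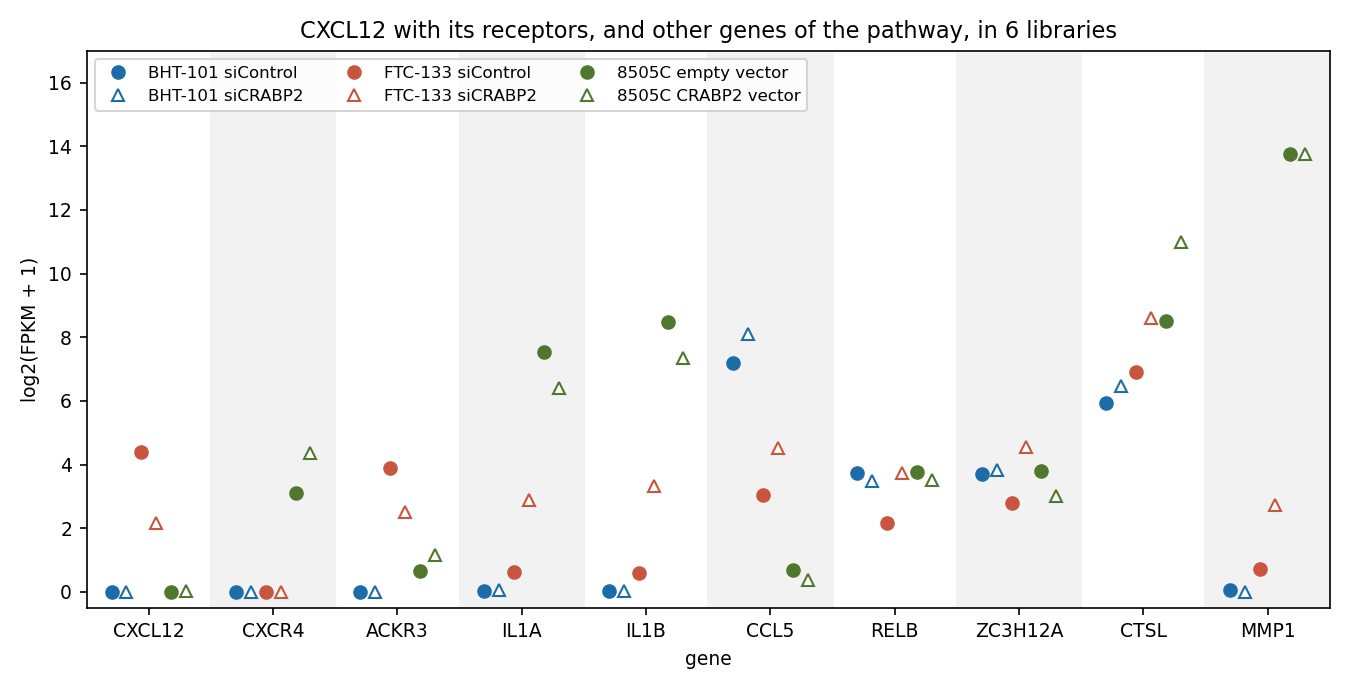
Levels of CXCL12, its receptors and 7 further genes of the pathway in the 6 libraries, as log2(FPKM + 1) (filled circles: siControl or empty vector; open triangles: siCRABP2 or CRABP2 vector; 1 library per point). CXCL12 and ACKR3 are highest in FTC-133, and CXCR4, IL1A, IL1B and MMP1 are highest in 8505C.

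The gene lists that follow are counted by the same size rule. Of all measured genes, 0.589% were at least 2-fold higher and 0.539% lower in BHT-101. The shares were 2.36% and 2.35% in FTC-133, and 1.85% and 1.86% in 8505C. Medians over all measured genes were 0.01, -0.04 and 0.02 in the same order. Of 31 other chemokine genes, 9 reached 1 FPKM in any library. With siCRABP2, 5 of 7 measured lay above 0 in BHT-101 (median 0.61) and 5 of 6 in FTC-133 (median 0.44), and 0 and 1 were at least 2-fold higher. CCL5, which draws T cells and monocytes, was the highest of them in BHT-101 and FTC-133, at 144.7 and 272.9 FPKM in BHT-101, 7.23 and 21.8 in FTC-133, and 0.613 and 0.302 in 8505C, where CXCL16 was above it (1.69 and 0.924). It differed by 0.91 in BHT-101 and by 1.47 in FTC-133. BHT-101 lay above FTC-133 in CCL5 by 3.87 (SE 0.28, limma adjusted p = 0.000208) and 8505C below BHT-101 (8505C minus BHT-101 -7.11, limma adjusted p = 3.45e-05). CX3CL1, a membrane-bound chemokine, was at 8.06 and 10.4 FPKM in BHT-101 and under 1 FPKM elsewhere.

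Among 35 upstream cytokines, receptors and adaptors, 21 were measured in FTC-133, and 5 were at least 2-fold higher and 0 lower with siCRABP2 (median 0.14). IL1A and IL1B were among those measured there only through the siCRABP2 library, where they were high. In BHT-101, 21 were measured and 0 passed in either direction (median 0.06). In 8505C, 20 were measured, and 0 were higher and 3 lower with the CRABP2 vector (median -0.27). IL1B and IL1A, the interleukin 1 genes, were lowest in BHT-101 and highest in 8505C. IL1B was at 0.0231 and 0.0289 FPKM in BHT-101, 0.521 and 9.01 in FTC-133, and 355.3 and 162.6 in 8505C. IL1A was at 0.0168 and 0.0422, 0.531 and 6.48, and 186.5 and 83.6 FPKM in the same order. Both were higher in 8505C than in BHT-101 in limma, IL1A by 6.93 (SE 0.48, limma adjusted p = 0.000161) and IL1B by 7.88 (SE 0.57, limma adjusted p = 0.000179). LIF, a cytokine of the interleukin 6 family, was at 10.4 and 26.3 FPKM in FTC-133 and IRAK2, an adaptor kinase of the interleukin 1 receptor, at 3.57 and 12.2.

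Of 23 genes of the NF-kB system, 21 were measured in FTC-133, 16 lay above 0, and 4 were at least 2-fold higher and 0 lower with siCRABP2 (median 0.28). The counts were 0 and 0 of 22 in BHT-101 (median -0.02) and 0 and 0 of 21 in 8505C (median -0.23, 15 of 21 below 0). RELB was at 3.47 and 12.2 FPKM in FTC-133, NFKB2 at 7.67 and 20.4, TNFAIP3, a feedback inhibitor, at 1.84 and 5.61, and NFKBIZ, a nuclear cofactor, at 5.10 and 11.6. TNFAIP3 was highest in 8505C, at 34.8 and 25.8 FPKM.

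Of 15 AP-1, C/EBP and STAT partners, 14 were measured in FTC-133, and 3 were at least 2-fold higher and 1 lower (median 0.12), against 0 and 0 of 14 in BHT-101 and 1 and 0 of 13 in 8505C. ATF3 was at 1.33 and 9.05 FPKM in FTC-133 and CEBPD at 20.9 and 81.2. FOS, the AP-1 subunit of early responses, was lower at 32.0 and 4.63. FOSL1, another AP-1 subunit, was the gene past the size rule in 8505C, at 46.5 and 202.0 FPKM.

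The mRNAs of the 9 genes differed in the density of the pentamer found in AU-rich elements. Counted in the longest coding transcript of each gene, the pentamer ATTTA occurred 8.21 times per kilobase in CXCL2, 6.51 in CXCL3, 5.87 in CXCL8, 4.77 in CCL20, 4.56 in CXCL1, 4.33 in CXCL5 and 3.49 in CXCL6. The median over 19448 genes was 0.95, and 0.02% of genes were at least as dense as CXCL2 and 4.19% as CXCL6. CCL2 (1.35) and CXCL12 (1.13) lay near the median, where 38.1% and 44.2% of genes were at least as dense. Of 14 regulators of AU-rich mRNA, all were measured in each line, and 1 was at least 2-fold higher in FTC-133 and 0 in the others. That was ZC3H12A, an RNase that degrades cytokine mRNAs, at 5.90 and 22.4 FPKM in FTC-133, 12.1 and 13.1 in BHT-101, and 12.8 and 7.15 in 8505C. Whether ZC3H12A acts through the pentamer was not tested.

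Of 19 proteases that cut chemokines and carriers of heparan sulfate, 14 were measured in FTC-133, and 2 were at least 2-fold higher and 1 lower with siCRABP2 (median 0.11). In 8505C, 14 were measured, with 2 higher and 2 lower with the CRABP2 vector (median -0.27), and in BHT-101 0 of 12 passed (median -0.15). CTSL, a lysosomal cysteine protease, was at 118.0 and 384.4 FPKM in FTC-133 and at 364.7 and 2026 in 8505C. MMP1, a collagenase, was at 0.654 and 5.62 FPKM in FTC-133 and at 13763 and 13736 in 8505C. In FTC-133 it was measured only through the siCRABP2 library, where it was high. By limma, 0 genes of any of these lists were called in the knockdown or in the arm comparison.

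The chemokines were also set against all other genes by likeness of pattern, as Pearson's r of log2(FPKM + 1) over the 6 libraries. These are descriptions over 6 points that share lines and libraries. Among 8624 protein-coding genes, those most like CXCL8 were ARHGEF2 (r = 0.9959), ANKRA2 (0.9939), CARS (0.991), YARS (0.9896) and MTHFD2 (0.9873). Those most like CCL2 were ANKH (0.9974), ARID5B (0.996), TMEM87B (0.9956), ZC3H18 (0.9926) and TMEM164 (0.9926). Those most like CXCL12 were KCNIP1 (0.9999), TRIL (0.9996), NEFL (0.999), KBTBD11 (0.9973) and SSX1 (0.9972). Among the 9 themselves, r was 0.929 for CXCL8 with CCL20, 0.927 for CXCL1 with CXCL3, 0.826 for CXCL5 with CXCL6, -0.584 for CXCL8 with CXCL5 and -0.887 for CCL2 with CXCL12.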

How the data were processed

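The table deposited by the authors holds FPKM values for 6 RNA sequencing libraries, 1 per condition. RNA was taken up in Trizol and made into Illumina libraries, per the labels' protocols. The submitters' processing notes name FastQC, Trimmomatic 0.38, featureCounts 2.0.0 and GRCh38. Not given in the sources used here are the aligner, the annotation and the strand setting. Reads of overlapping or antisense genes therefore cannot be told apart. Of 58884 gene identifiers, 58611 were named from GENCODE release 29 and 58876 in all.

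Reads were recovered as FPKM times the release 29 exon length, or the nearest length that gave whole reads, at a tolerance of 0.01 reads. Read intervals are 95% exact (Clopper-Pearson). Values were analysed as log2(FPKM + 1). For comparisons over lines, genes were fitted in limma 3.58.1 under R 4.3.3, with a variance trend and Benjamini-Hochberg adjustment at 0.05, if they were at 1 FPKM or more in 2 or more libraries. Libraries are paired by the cell line in the labels. The procedure was tested on simulated data in which a changed gene shifted equally in every line. That test therefore does not cover CRABP2 differences that vary between lines. The p-values of the main fits rest on how far the CRABP2 difference varied between lines, together with noise. Each line and arm had 1 library, so noise, which may be technical, cannot be separated from that variation.

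The 9 genes, the gene lists and the tests were chosen with earlier results of these data known. Beside the 9 and CRABP2, up to 4 genes per list with the largest difference within a line and FPKM of at least 5 in a library could be named, with 5 similar genes each for CXCL8, CCL2 and CXCL12. CXCR1, CXCR2, CCR2, CCR6, CXCL16 and the single markers were named after their values were seen. Alternatives were pseudocounts of 0.1 and 5, no filter, quantile and upper-quartile scaling, no block and leaving out each line. Promoters are RefSeq (GRCh38.p14). Sequence comparisons and plots used Python 3.11.15.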

Additional observations from a re-analysis of the deposited data

Results flagged for a closer look

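In 21 of 85 genes of the gene lists measured in both lines, the difference between siCRABP2 and siControl had opposite signs in BHT-101 and FTC-133, with counting intervals on opposite sides of 0. The share over all genes was not determined, so 21 of 85 cannot be called more or less than usual. These intervals hold counting error alone, so genes with many reads can meet the criterion at small differences. The 8 given here are those that the naming rule admits, so the account is partial; the NF-kB list held 8 of the 21. The difference between the lines was not tested in any of them, and each line has 1 library per condition. In the order BHT-101 then FTC-133, on log2(FPKM + 1), the differences were -0.19 and 1.27 for the cytokine LIF, -0.23 and 1.56 for the NF-kB subunit RELB, and -0.068 and 1.30 for the NF-kB subunit NFKB2. They were -0.26 and 2.11 for ATF3, -0.25 and 0.60 for the AP-1 subunit FOSL1, and -0.17 and 0.91 for the mRNA decay factor ZFP36L1. They were -0.28 and 0.32 for the phosphatase DUSP1, and -0.15 and 0.079 for the heparan sulfate carrier SDC1. None of the 5 chemokine genes of the 9 that were measured in both lines met this criterion.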

How the results depend on the processing

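With 1 library per condition, the limits of this series are the absence of replicates and 1 or 2 residual degrees of freedom over lines. Depth limits CCL2 in FTC-133, CXCL6 in BHT-101, CXCL12 outside FTC-133, and CXCL5 and CXCL6 in 8505C. The number of the 9 genes at least 2-fold higher with siCRABP2 in BHT-101 went from 1 to 2 with a pseudocount of 0.1. In FTC-133 it went from 6 to 7 with a pseudocount of 0.1 and to 5 with one of 5, and the number at least 2-fold lower in 8505C went from 2 to 3 with 0.1. The number called between BHT-101 and FTC-133 went from 5 to 3 with no filter on low values, where the share of all genes called went from 46.0% of 13736 to 16.6% of 33848. The cause of these changes was not tested. With no replicate block for the line or arm, the number of the 9 called was 0 in the knockdown, 0 in the arm comparison, 4 for 8505C against BHT-101, 6 for 8505C against FTC-133 and 4 for BHT-101 against FTC-133. The shares of all genes called without the block were 0.0%, 0.0%, 62.1%, 60.2% and 48.9%. Leaving out each line in turn gave 0 of the 9 in the arm comparison in every case. Over all genes that comparison then called 0 higher and 1 lower without BHT-101, 6 higher and 4 lower without FTC-133, and 0 without 8505C. Of 432 values of single genes under the alternatives, 2 newly passed the adjusted threshold and 10 no longer passed it. The sign differed in 2, both of CCL2 and neither called: in the arm comparison it went from 0.25 to -0.042 without 8505C, and for 8505C against BHT-101 from 0.017 to -0.002 with a pseudocount of 0.1.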
